A study of Mus musculus with 14 samples.

Results

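The genes described here are 9 transcription factors of ventral spinal interneurons, namely Gata2, Gata3, Tal1, Foxn4, Vsx1, Sox14, En1, Evx1 and Sim1. They were taken as a named list of V0 to V3 factors and found by Entrez identifier in the 2 full tables of comparisons that the authors deposited, which together hold 16060 genes. The list was chosen by the factors' known cell class with both tables' fold changes and p-values in view, so every fold change and p-value of the 9 is a description of these libraries and no independent test. All 9 were in the table for day 10 (D10), and 3 of them (Gata2, Gata3 and En1) were in the table for day 5 (D5).

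The libraries came from mouse embryonic stem cells differentiated towards neural cells, of the line labelled GLI1-FTA in the A2Lox.cre background, a background made for doxycycline-driven expression of an inserted gene. Every sample, controls included, was of that line. The D5 groups, labelled neural progenitor cells, were 4 GLI1 OE samples that received doxycycline at 500 ng/ml over the 48 hours before harvest, starting at D3, and 4 untreated control samples. The D10 groups, labelled immature neurons, were 3 GLI1 OE samples given the same pulse, then washed and kept for 5 more days, and 3 untreated control samples. GLI1 is the zinc-finger activator at the end of the Hedgehog pathway, and controls received no doxycycline, so effects of the drug and of GLI1 cannot be told apart. The labels do not say whether replicates were separate cultures or whether the line is a single clone, so the p-values measure only the spread between these samples, which may be technical. The tables give 1 comparison a day and no value per library, so the level in each sample, its spread, the depth and the overlap of the groups are not known here.

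In the ventral neural tube, Sonic hedgehog from the floor plate sets up progenitor domains stacked along the dorsoventral axis, and each domain gives rise to its own class of neuron. V0 neurons come from the most dorsal of the ventral domains and express Evx1, and V1 neurons express En1. The p2 domain makes V2 neurons: Foxn4 and Vsx1 are expressed in its progenitors and newborn cells, Sox14 in excitatory V2a cells, and Gata2, Gata3 and Tal1 in inhibitory V2b cells. V3 neurons come from the most ventral neuronal domain and express Sim1. Gata2, Gata3 and Tal1 also act outside the nervous system, above all in blood, and Gata2 and Gata3 in trophoblast and surface ectoderm.

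The smallest p-values of the 9 at D10 were those of the V2b factors Tal1, Gata2 and Gata3, so the bases before their annotated starts are shown. Each is the 250 bases upstream of a RefSeq start in GRCm38.p6, written 5′ to 3′ on the gene's strand. Capitals mark the GC box GGGCGG, the GATA element AGATAA, the E-box CANNTG, the TATA box TATAAA and the GLI core GACCACCCA on either strand. For Gata2 and Tal1, the start listed first is shown.
Gata2, chr6:88193641-88193890, plus strand: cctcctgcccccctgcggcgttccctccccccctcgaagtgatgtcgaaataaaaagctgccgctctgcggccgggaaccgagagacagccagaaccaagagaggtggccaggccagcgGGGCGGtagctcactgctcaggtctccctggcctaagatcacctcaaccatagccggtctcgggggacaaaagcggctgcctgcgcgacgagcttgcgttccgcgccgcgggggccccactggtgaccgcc
Gata3, chr2:9878601-9878850, minus strand: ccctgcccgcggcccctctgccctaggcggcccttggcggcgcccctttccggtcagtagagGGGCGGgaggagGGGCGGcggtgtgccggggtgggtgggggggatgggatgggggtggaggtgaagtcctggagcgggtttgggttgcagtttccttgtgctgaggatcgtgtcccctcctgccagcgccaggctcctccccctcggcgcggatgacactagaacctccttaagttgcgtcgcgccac
Tal1, chr4:115056176-115056425, plus strand: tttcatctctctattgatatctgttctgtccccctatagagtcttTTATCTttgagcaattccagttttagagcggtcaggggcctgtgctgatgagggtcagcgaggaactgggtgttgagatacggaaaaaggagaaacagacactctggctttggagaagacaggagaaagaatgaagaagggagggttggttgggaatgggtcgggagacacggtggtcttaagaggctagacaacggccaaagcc

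The Gata2 window held 1 GC box, 131 bases before the start, and the Gata3 window held 2, at 188 and 176 bases before it. The Tal1 window held 1 AGATAA, 205 bases before the start, and no GC box, while the window of the other Tal1 start held 3 GC boxes. All 9 genes matched the RefSeq promoters, with 11 windows in all. The GLI core was in 0 of these 11 windows, and in 0 with a base left free (GACCNCCCA); over all 32851 windows of the same length the shares were 0.225% and 0.868%. GC boxes were in 6 of the 11 windows and in 32.7% of all windows. AGATAA was in 1 of 11 and 9.99% of all, E-boxes in 5 of 11 and 66.2% of all, and TATA boxes in 1 of 11, that of Sim1, and 12.4% of all. The V2b windows shown had a GC content of 67.2% for Gata2, 70% for Gata3 and 48.8% for Tal1, against a median of 52.4% over all windows. These are matches of letters only, since the data measure RNA and no binding.

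Gli1, the induced gene, checks the labels. It was 27.8-fold higher in GLI1 OE samples at D5 in the authors' deposited table (adjusted p = 1.12e-81) and 1.48-fold higher at D10, where it did not pass (adjusted p = 0.780). The authors' average log2 CPM was taken as the log2 of a gene's mean CPM, its count scaled to library size, over the libraries of a day. From it and the fold change, a level in each group was derived here, which has no error of its own and is not corrected for gene length. General neuron genes were in both tables in full (12 of 12), with average log2 CPM from 1.82 to 7.72 at D5 and from 3.58 to 9.11 at D10 in the authors' deposited tables.

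At D5, while GLI1 was induced, few of the interneuron factors were measured and none passed the test. Of the 3 in the authors' deposited table, 0 had an adjusted p under 0.05, the threshold used here to call a gene changed, and 0 had an unadjusted p under 0.05. Over all 15108 genes of that table, 4.44% were called (2.34% higher and 2.1% lower) and 10.7% had an unadjusted p under 0.05. A log2 fold change above 0 was found for 1 of the 3 and for 50.5% of all genes. With a threshold of 0.1, which 5.32% of all genes passed, or with the rescaled p described below for D10, which 5.12% passed, the count of factors was also 0.

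The V2b factor Gata2 (Entrez 14461) had a derived level of 1.11 CPM in control and 1.09 CPM in GLI1 OE samples at D5. Its log2 fold change was -0.029 in the authors' deposited table, with an implied 95% interval from 0.499 to 1.92-fold. That interval was computed here from the authors' p-value and covers both a halving and a near doubling of the level.

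Gata3 (Entrez 14462), its paralog, stood at 1.75 CPM in control and 1.76 CPM in GLI1 OE samples. The authors' deposited table gives it a log2 fold change of 0.0064 with p = 1.00, from which no interval can be derived.

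En1 (Entrez 13798), the homeobox factor of V1 neurons, stood at 0.723 CPM in control and 0.566 CPM in GLI1 OE samples. Its log2 fold change was -0.35 in the authors' deposited table (p = 0.441, implied 95% interval -1.25 to 0.54). Its difference was the largest in size of the 3, and its interval spans 0.

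The other 6 factors, Tal1, Foxn4, Vsx1, Sox14, Evx1 and Sim1, were not measured at D5. The sources used here do not give the filter behind the tables, and the lowest average log2 CPM of a gene kept at D5 was -2.35. Of the 15744 genes in the D10 table, 6.05% were missing from the D5 table, against 6 of these 9. Other classes of late neuronal genes had a like gap: 10 of 15 other ventral interneuron factors, 5 of 15 dorsal interneuron factors and 3 of 7 motor neuron genes were measured at D5, and 15, 13 and 6 of them at D10. All 13 ventral progenitor factors were measured on both days.

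**Figure D1:**
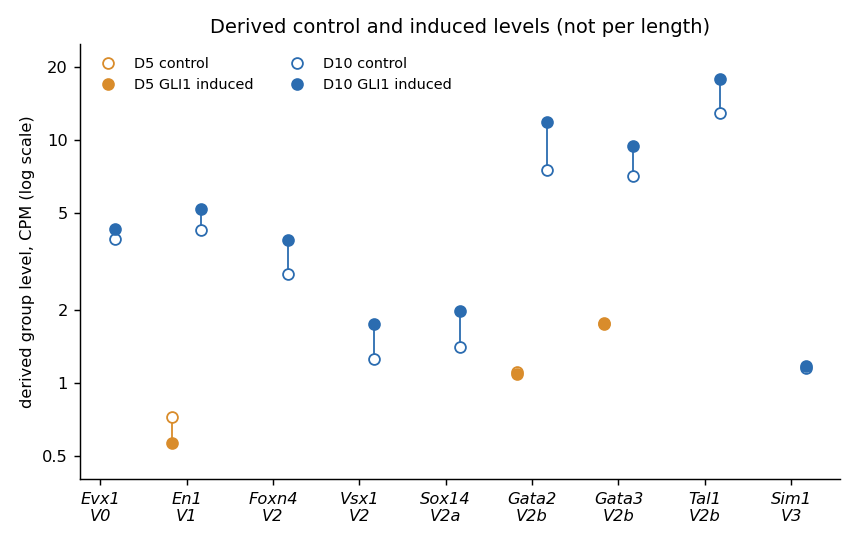
Derived level of each factor in CPM (log axis, not per length) in control (open) and GLI1 OE (filled) groups at D5 (orange) and D10 (blue), with no error since no value per library was used. Gata2 stood near 1.1 CPM in both D5 groups and at 7.58 and 11.9 CPM at D10, and 6 factors have no D5 point.

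At D10, after washout, all 9 factors had a log2 fold change above 0 in the authors' deposited table, from 0.030 for Sim1 to 0.65 for Gata2, with a median of 0.47. None of them passed: 0 of 9 had an adjusted p under 0.05, where 0.0826% of all 15744 genes were called, all of them higher. At a threshold of 0.1, which 0.0889% of all genes passed, the count was also 0. At an unadjusted p under 0.05 there were 3 of 9, Gata2, Tal1 and Gata3, against 1.53% of all genes in either direction and 0.883% in the higher direction. Of all genes, 51.1% had a value above 0, and the median was 0.0027. All 9 passed the authors' filter at D10, and the list may have been drawn up from genes that did, so these shares are not set against each other in a test.

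Gata2 had the largest fold of the 9. Its derived level was 7.58 CPM in control and 11.9 CPM in GLI1 OE samples at D10. That is 1.57-fold, with an implied 95% interval from 1.17 to 2.11-fold. Its log2 fold change was 0.65 in the authors' deposited table (implied SE 0.22, p = 0.00277, adjusted p = 1.00), and 0.635% of all genes had a larger one.

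Tal1 (Entrez 21349), a basic helix-loop-helix factor that partners GATA factors in V2b and blood cells, had the smallest p of the 9. It stood at 12.9 CPM in control and 17.9 CPM in GLI1 OE samples, a 1.39-fold difference with an implied 95% interval from 1.13 to 1.70-fold. The authors' deposited table gives a log2 fold change of 0.47 (implied SE 0.15, p = 0.00163, adjusted p = 0.780). By p it ranked at 32 of 15744 genes, with Gata2 at 42 and Gata3 at 137.

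Gata3 stood at 7.17 CPM in control and 9.48 CPM in GLI1 OE samples, 1.32-fold with an implied 95% interval from 1.03 to 1.69-fold. Its log2 fold change was 0.40 in the authors' deposited table (implied SE 0.18, p = 0.0270, adjusted p = 1.00). The intervals of the 3 V2b factors lie above 1-fold and overlap one another.

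Gata2 and Tal1 did not pass with the authors' p-values, and whether they pass depended on the scale of those values. The median p at D10 was 0.684, where 0.5 would be met if no gene differed. The p-values of the authors' deposited table were then rescaled within bins of genes of like abundance, so that their median matched that of a standard normal. After Benjamini-Hochberg adjustment over all genes, Tal1 and Gata2 passed, with rescaled adjusted p-values of 0.0010 and 0.00319, and Gata3, with 0.113, did not. Of all genes, 0.756% passed, 0.495% in the higher direction.

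**Figure D2:**
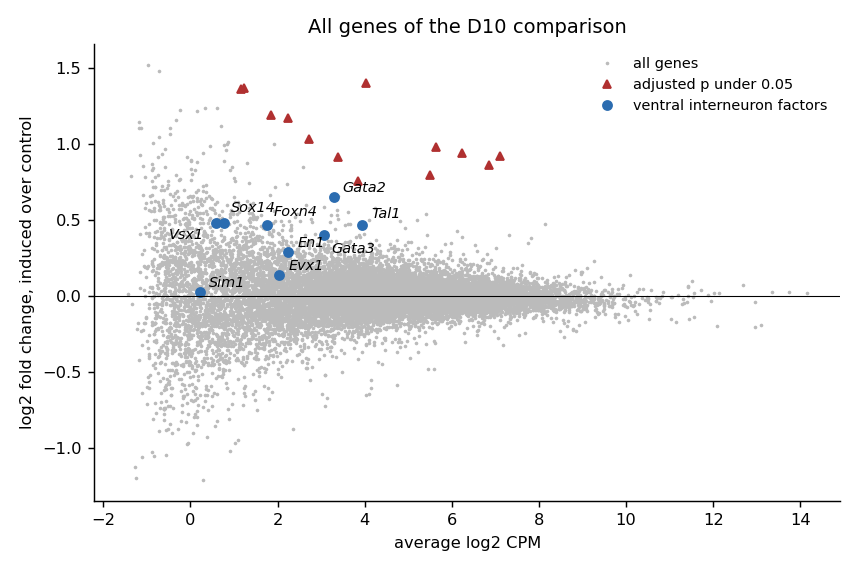
Log2 fold change against average log2 CPM for all 15744 genes at D10 (grey), the 13 genes with an adjusted p under 0.05 (red triangles) and the 9 interneuron factors (blue). All 9 lie above 0, and none is among the 13.

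The factors of the p2 domain and of V2a cells had fold changes between those of Gata3 and Gata2, with fewer reads behind them and wider intervals. Foxn4 (Entrez 116810), the forkhead factor that starts V2 diversification together with Notch signalling, stood at 2.81 CPM in control and 3.90 CPM in GLI1 OE samples. The ratio was 1.38-fold, with an implied 95% interval from 0.962 to 1.99-fold (p = 0.0799 in the authors' deposited table). Vsx1 (Entrez 114889), a paired-like homeobox factor, stood at 1.25 and 1.75 CPM, 1.40-fold with an interval from 0.949 to 2.06-fold (p = 0.0896 in the authors' deposited table).

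Sox14 (Entrez 20669), an HMG-box repressor, stood at 1.41 CPM in control and 1.97 CPM in GLI1 OE samples. Its fold of 1.40 matched that of Vsx1, but its interval ran from 0.733 to 2.67-fold (p = 0.309 in the authors' deposited table). The intervals of Foxn4, Vsx1 and Sox14 all include no difference.

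The factors of the other classes stood closer to no difference. En1, of V1 neurons, stood at 4.28 CPM in control and 5.23 CPM in GLI1 OE samples at D10, 1.22-fold with an interval from 0.845 to 1.77-fold (p = 0.286 in the authors' deposited table). Evx1 (Entrez 14028), the homeobox factor of V0 neurons, stood at 3.92 and 4.32 CPM, 1.10-fold with an interval from 0.737 to 1.65-fold (p = 0.637 in the authors' deposited table). Sim1 (Entrez 20464), a bHLH-PAS factor of V3 neurons, stood at 1.16 and 1.18 CPM, 1.02-fold with an interval from 0.479 to 2.18-fold (p = 0.958 in the authors' deposited table). The Sim1 interval is the widest of the 9 on the log2 scale and does not separate a halving from a doubling. Whether the V2b factors differ from those of V0, V1 and V3 in their response was not tested.

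**Figure D3:**
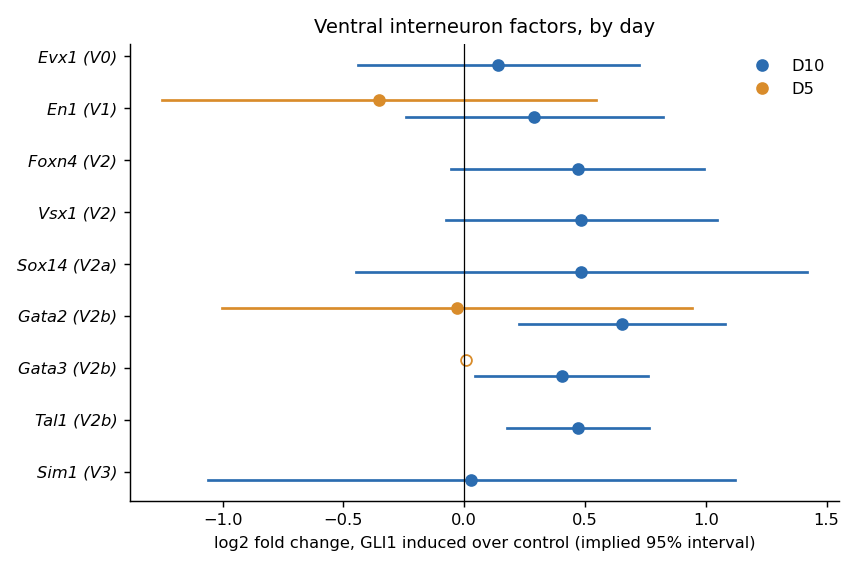
Log2 fold change of GLI1 OE over control for each factor at D5 (orange) and D10 (blue), with the implied 95% interval as a line. The open D5 point is Gata3, which has no interval, and at D10 the intervals of Gata2, Gata3 and Tal1 lie above 0 while those of the other 6 factors cross it.

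The difference between the days could be tested for 2 of the 9. For Gata2 the log2 fold change was higher at D10 by 0.68 (implied 95% interval -0.38 to 1.74), and for En1 by 0.64 (interval -0.40 to 1.68). Neither passed when p from the authors' deposited tables was combined (adjusted p = 1.00 for both). Of the 14792 genes in both tables, 1.24% were called. For Gata3 the difference was 0.40, with no interval. In control cultures the derived level of Gata2 was 1.11 CPM at D5 and 7.58 CPM at D10, that of Gata3 was 1.75 and 7.17 CPM, and that of En1 was 0.723 and 4.28 CPM. The days were normalized in separate tables, so these differences between days were not tested.

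Levels of different genes were compared per length, as average CPM per kilobase of all annotated exons, at D10. Tal1 was highest at 3.53, followed by Gata3 at 2.09, En1 and Gata2 at 1.81 each, and Evx1 at 1.43. Foxn4 stood at 0.995, Sox14 at 0.820, Vsx1 at 0.396 and Sim1 at 0.135 CPM per kilobase. Without values per library, no neighbours in this order can be said to differ, and with the longest transcript as the length Gata2 came second at 2.73, before Gata3 at 2.59 and En1. In these mixed cultures, fewer cells of a class and less RNA per cell cannot be told apart. Gata3 and Evx1 overlap genes on the opposite strand in GENCODE M21 (for Evx1, Evx1os), and Gata3 also a gene on its own strand. Since the sources used here do not say whether counting used strand, their values are uncertain in that respect.

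Several progenitor factors of the ventral domains changed at D5. Of the 13 listed, the authors' deposited table has 6 higher and 1 lower at D5, with a median of 0.34 against 0.0015 over all genes. The lower one was Prdm12 at -1.56 (adjusted p = 0.000115 in the authors' deposited table). Dbx1, Dbx2, Pax6, Irx3 and Irx5 did not pass at D5, with values from -0.17 to -0.01, nor did Olig2 at 0.34. Nkx2-9 and Nkx2-2, of the domain that makes V3 neurons, stood at 5.72 and 5.38, Nkx6-2 at 2.68 and Shh at 3.70 in that authors' deposited table. These are targets or mediators of Hedgehog signalling, and the list overlaps genes already known to respond in these libraries. At D10 the authors' deposited table has 1 higher and 0 lower, the higher one being the ligand Shh at 1.41 (adjusted p = 3.21e-13), with 12 of 13 above 0 and a median of 0.35.

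Partners of the V2 choice gave few calls. This list of 11 includes Notch pathway genes, LIM-domain adaptors and their binding partner Ldb1, and the LIM homeodomain factors Lhx3 and Lhx4. Of the 9 measured at D5, the authors' deposited table has 1 higher and 1 lower: Mfng, a Notch-modifying glycosyltransferase, at 0.64 (adjusted p = 3.81e-05) and Lmo2, a LIM-only adaptor, at -1.19 (adjusted p = 0.0130). Of the 11 measured at D10, 0 passed in the authors' deposited table and 1 had an unadjusted p under 0.05, Lhx4 at 0.49 (p = 0.0309). Jag1, a Notch ligand, followed at 0.19 in the authors' deposited table, and the median at D10 was 0.06.

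Other ventral interneuron factors were lower or did not pass at D5. Of the 10 measured, the authors' deposited table has 0 higher and 3 lower, among them the LIM homeodomain factors Lhx1 at -1.50 and Lhx5 at -1.13, shared by several interneuron classes. At D10, 0 of 15 passed in the authors' deposited table, 1 had an unadjusted p under 0.05 (Bhlhe22 at 0.32, p = 0.0357, followed by Foxp2 at 0.31), 11 were above 0 and the median was 0.11.

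Dorsal interneuron factors had the opposite sign to the 9 at D10. All 13 measured were below 0 in the authors' deposited table, from -1.21 to -0.07, with a median of -0.55; 0 passed, and 5 had an unadjusted p under 0.05. In the authors' deposited table the smallest p belonged to Barhl1 at -1.21 (p = 0.000155, adjusted p = 0.144), a factor of commissural dorsal neurons, and to Gsx1 at -0.87 (p = 0.00127), a dorsal progenitor factor. At D5 the authors' deposited table has 4 of 5 measured lower and 0 higher, with Prdm13 at -1.47, Tfap2b at -1.49, Pou4f1 at -0.93 and Lhx2 at -0.93. A test between the ventral and dorsal lists was not made.

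Motor neuron, transmitter and general neuron genes were set beside these. Of the motor neuron genes, 0 of 3 passed at D5 and 0 of 6 at D10 in the authors' deposited tables, with 2 at an unadjusted p under 0.05 on each day: at D5 Isl1 at 0.73 and Slc18a3 at 0.62, at D10 Lhx4 among them. Of the transmitter genes at D10, 1 of 10 was higher in the authors' deposited table, the vesicular glutamate transporter Slc17a8 at 1.17 (adjusted p = 0.0152), and 0 were lower. The list was split, with 5 above and 5 below 0 and a median of -0.04. At an unadjusted p under 0.05 there were 3, Slc17a8 and 2 lower ones in the authors' deposited table: Calb2, a calcium-binding protein, at -0.65 (p = 8.53e-05, adjusted p = 0.0959) and the vesicular glutamate transporter Slc17a6 at -0.43 (p = 0.0180). The inhibitory genes that V2b and V1 cells use, Gad1, Gad2, Slc32a1 and Slc6a5, stood at 0.26, 0.29, 0.01 and 0.13 there and did not pass. At D5, 2 transmitter genes were measured and Slc32a1 was lower at -2.50 in the authors' deposited table (adjusted p = 0.00246), at a derived level under 1 CPM in both groups.

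Of the 12 general neuron genes, 5 were lower at D5 and 0 passed at D10 in the authors' deposited tables, with medians of -0.34 and 0.04. Nefm at -1.61, Nefl at -1.11, Gap43 at -0.70 and Stmn2 at -0.39 were among the lower ones at D5. The smallest p at D10 belonged to Syt1 at 0.26 and Elavl4 at 0.09 in the authors' deposited table. At D10 their summed derived level was 2451 CPM in control and 2505 CPM in GLI1 OE samples, while that of the 9 factors was 42.5 and 57.7 CPM. Tal1, Gata2 and Gata3 had the highest derived levels of the 9 and made up most of the latter sum in each group.

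**Figure D4:**
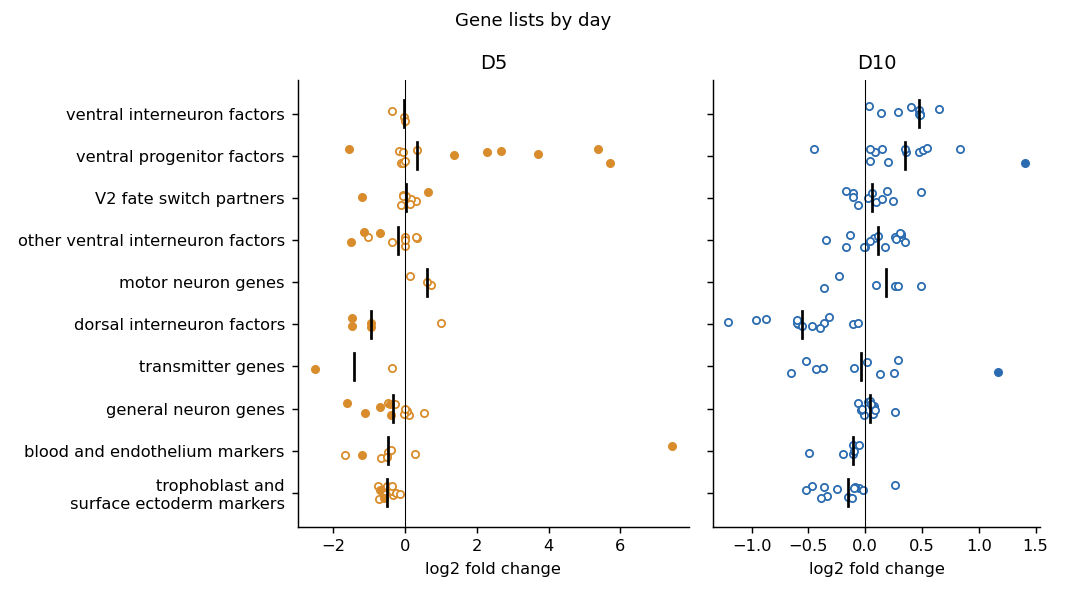
Log2 fold changes at D5 (left) and D10 (right) of the interneuron factors and 9 other gene lists, with genes at an adjusted p under 0.05 filled, others open, and the median of a list as a black bar. At D10 all 9 interneuron factors lie above 0 and all 13 measured dorsal factors below it.

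Markers of other cells that express some of the 9 were examined. Of 22 blood and endothelium markers, 6 were measured at D10, all below 0 in the authors' deposited table and 0 of them passing, with a summed derived level of 151 CPM in control and 139 CPM in GLI1 OE samples. The blood genes Gata1, Klf1, Nfe2, Spi1 and Ptprc were in neither table. Others of this list were measured, so blood genes were not absent as a group. Runx1 and Lmo2 had average log2 CPM of 4.30 and 2.26 at D10, and Hbb-bh1 had 0.73 at D5. Tek and Sox17 made up most of the summed level at D10, at average log2 CPM of 6.16 and 5.48. By p at D10 in the authors' deposited table, Cdh5 at -0.49 and Sox17 at -0.20 came first. At D5, 8 were measured, of which Sox18 was higher at 7.43 and Lmo2 lower at -1.19 in the authors' deposited table. Sox18 was not in the D10 table.

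Of 15 trophoblast and surface ectoderm markers, 13 were measured at D10, 12 of them below 0 in the authors' deposited table and 0 passing, with summed levels of 1165 CPM in control and 1127 CPM in GLI1 OE samples. Trp63 at -0.47 and Tfap2a at -0.34 had the smallest p there. Epcam at -0.58 and Esrp1 at -0.71 were lower at D5 in the authors' deposited table, and the other 9 measured did not pass. The keratins Krt8 and Krt18 made up most of the sum of this list at D10, at average log2 CPM of 8.90 and 9.04. Their log2 fold changes at D10 were -0.06 and -0.02 in the authors' deposited table. At D10 both marker sums were lower in GLI1 OE samples, the opposite direction to Gata2, Gata3 and Tal1, and their part in the values of these factors was not tested.

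En1 is also a factor of the midbrain and hindbrain boundary, Sim1 of the hypothalamus and Evx1 of the primitive streak. Boundary markers gave 0 calls of 5 at D5 and 0 of 8 at D10 in the authors' deposited tables, with Otx2 at -0.89 and Pax2 at -0.36 having the smallest p at D5. En2, the paralog of En1, stood at -0.35 and 0.52 on the 2 days, and Wnt1 at -0.64 and Lmx1a at -0.43 had the smallest p at D10 (0.0118 and 0.0209). Of the boundary markers, 1 of 5 was above 0 at D5, with a median of -0.35, and 5 of 8 at D10, with a median of 0.24. Otx2 was the highest at D10, at 0.61 in the authors' deposited table (p = 0.0609). Hypothalamus markers gave 0 calls of 2 at D5 and 0 of 5 at D10 in the authors' deposited tables, all above 0, with Six3 at 0.58 and Pou3f2 at 0.31 having the smallest p at D10. Primitive streak markers gave 1 call of 4 at D5, T (brachyury) at 1.85 (adjusted p = 0.00141), and 0 of 4 at D10 in the authors' deposited tables, where Wnt3 stood at -0.53 (p = 0.0130), Eomes at -0.52, T at 0.13 and Tbx6 at 0.05.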

How the data were processed

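RNA was measured in 14 libraries of polyadenylated RNA, grouped by their titles. The aligner, counting, test and genome build: not given in the sources used here. Per the file headers, the authors deposited a log fold change and a p-value with its FDR for each gene, by Entrez identifier, and its average abundance as log CPM. The deposited logs were taken as log2, since 2 raised to the abundance sums over genes to 1001543 (D5) and 1001340 (D10). The authors' p-values and FDR are used as deposited, and the FDR equals a Benjamini-Hochberg adjustment within 3.41e-05. Depth per sample is unknown.

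Symbols came from the authors' selected genes and RefSeq (GRCm38.p6), which named 94.6% of identifiers on either day. Python 3.11.15, numpy 2.4.6, scipy 1.17.1, pandas 2.3.3 and matplotlib 3.10.9 were used. The implied SE is the size of the log2 fold change over that of z from p, and intervals are normal at 95%. Where p is near 1 it is unstable or undefined. Derived levels take the average as the log2 of the mean CPM of 2 equal groups. The day difference was divided by the root of the summed squared SEs, two-sided, with adjustment over shared genes. Procedures were tested on simulated data.

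The members, 12 context lists of 141 genes and the tests were chosen with earlier results of these data known. Named are all members, Gli1 and, of each list and day, up to 4 called genes with the smallest p, or 2 if none was called; a few genes that this rule names are not reported here. En2, Tek, at D10 Gad1, Gad2, Slc32a1, Slc6a5, Calb2, Slc17a6, Otx2, T and Tbx6, and the blood genes in neither table were named after their values were seen. Prdm12, Dbx1, Dbx2, Pax6, Irx3, Irx5, Olig2, Krt8, Krt18, Lmx1b, Runx1, Hbb-bh1 and, at D10, Lmo2 were also named outside the rule, with results known. The rule for genes with a like pattern required a member called at D5, so it named none. Alternatives covered thresholds of 0.01 and 0.1, Holm's adjustment, a 2-fold minimum, leaving out genes whose average log2 CPM was under 1, rescaled p (bins of about 500 genes) and levels from mean log2 values. Gene length by longest transcript was added after seeing the data.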

Additional observations from a re-analysis of the deposited data

Results flagged for a closer look

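The 9 interneuron factors gave no difference between the days that passed. The other genes looked at here were Gli1 and those that the naming rule chose. Of these, 12 had log2 fold changes that differed between D5 and D10 (adjusted p under 0.05, test from implied SEs). D10 minus D5 was -4.22 for Gli1, -5.37 for Nkx2-9, -4.55 for Nkx2-2, -2.34 for Nkx6-2 and -2.30 for Shh. It was 1.68 for Nefm, 1.14 for Nefl, 0.64 for Gap43, 1.81 for Lhx1, 1.48 for Lhx5, 1.12 for Tfap2b and 2.51 for Slc32a1.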

How the results depend on the processing

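No paired analysis was possible because the sources hold 1 comparison a day and no value per library, and for the same reason no replicate could be left out. At D5, 0 of the 3 measured factors passed with a threshold of 0.1 or with rescaled p. The other alternatives could add no call. The 3 factors had average log2 CPM from -0.63 to 0.81, so leaving out genes under 1 left none of them to test. A threshold of 0.01, Holm's adjustment and a 2-fold minimum are stricter than the main setting, on either day. At D10, 0 of 9 passed with a threshold of 0.1, and the threshold of 0.01, Holm's adjustment and a 2-fold minimum could add none. Leaving out genes under 1 in average log2 CPM took out Vsx1, Sox14 and Sim1, and none of the other factors passed. With rescaled p, 2 of 9 passed (Tal1 and Gata2), when 119 genes passed in place of 13. The rescaling assumes that most genes of a bin are unchanged. The difference between the days gave 0 calls of 2 with a threshold of 0.1 and with rescaled p. A threshold of 0.01 and Holm's adjustment could add none. Leaving out genes under 1 in average log2 CPM left neither Gata2 (0.14 at D5) nor En1 (-0.63 at D5) to test. Over all context lists at D10, calls were 2 higher and 0 lower; rescaled p gave 4 higher and 7 lower, and a threshold of 0.1 gave 1 lower. With rescaled p these included 3 higher ventral progenitor factors in place of 1, and among lower genes 3 dorsal interneuron, 2 transmitter, 1 motor neuron and 1 boundary gene in place of 0. At D5 the totals of 9 higher and 17 lower ranged from 8 to 11 and from 15 to 18. Single lists moved: V2 partners had 2 higher with a threshold of 0.1 or rescaled p, and 0 lower with rescaled p or without genes of low average; without the latter, the calls of Slc32a1, T and Lmo2 ended. A threshold of 0.1 added 1 higher dorsal factor, Lmx1b, and gave 2 lower blood and endothelium markers in place of 1. With mean log2 values, the derived levels of the factors moved most, in proportion, for Gata2 at D10. They went from 7.58 to 7.78 CPM in control and from 11.9 to 12.2 CPM in GLI1 OE samples. For Gata3 at D5 the move was less than 0.01 on the log2 scale. By longest transcript, 3 of the 9 places in the order of levels changed. The depth of the libraries is unknown, so what it limits could not be measured; implied SEs of the factors at D10 ran from 0.15 for Tal1 to 0.56 for Sim1.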
